A study of Rattus norvegicus with 78 samples.

Results

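The genes described here encode proteins of the fibrous sheath, the cytoskeletal sleeve around the axoneme in the principal piece of the sperm tail. The set was defined by symbol as Akap3, Akap4, Akap14, Fscb, Ropn1, Ropn1l, Cabyr and Spa17. Of these 8 genes, 6 had a probe set among the 14506 genes that the platform annotation names, each with 1 probe set. Ropn1l and Cabyr were not matched by symbol, Entrez identifier or accession and are not analysed here.

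The fibrous sheath forms late in spermiogenesis and is built mainly from A-kinase anchoring proteins, which hold protein kinase A (PKA) beside the motor of the tail. The sheath also carries enzymes of glycolysis, some of them in forms made only in the male germ line. Mature sperm are largely silent in transcription, so the RNA in them is left over from earlier stages.

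RNA was measured on 78 arrays of sperm from Fischer 344 rats, 1 array per sample. The study looked for transcripts in rat sperm that mark injury of the testis by 1,2-dibromo-3-chloropropane (DBCP), a former soil fumigant that is toxic to germ cells. The corn oil group had 20 arrays from rats given the vehicle for 3 months, and the DBCP group had 20 arrays from rats given 5 mg/kg/d of DBCP for the same time. The corn oil recovery and DBCP recovery groups had 19 arrays each, from rats of the same treatments sampled after a recovery (duration not given in the sources used here). Sperm were let out of the punctured cauda epididymis, the storage part of the epididymis, and treated with a buffer that lyses red cells. The labels call the samples biological replicates and do not say whether a sample was 1 rat. The p-values therefore measure the spread between these samples.

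Each value is the deposited log2 signal of a probe set, and array medians lay between 6.55 and 6.75. Transcripts that define sperm were bright in every group: Odf1, of the outer dense fibres, had group means from 14.10 to 14.14, and Prm1, the protamine that packs sperm DNA, had group means from 12.82 to 13.16. The mean log2 level of 28 leukocyte markers lay between 7.59 and 7.98 in the 4 groups, also above the array medians. This mean does not show which of the markers were detected. In such bulk samples, fewer cells of a type and less RNA per cell cannot be told apart. No detection calls were used. Precision is limited by how many arrays each group holds.

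The sequence just before the start of each gene is shown first because 4 of the 7 sheath genes with a promoter entry share an 8-base word there, and the 5 of them that are on the array are printed. The sequences are from RefSeq on build GRCr8, 120 bases each, 5′ to 3′ on the gene's strand and ending at the base before the annotated start. Capitals mark TGATGTCA or its reverse complement TGACATCA, a one-letter change from the cyclic AMP response element TGACGTCA.
Akap4, chrX:18117550-18117669, minus strand: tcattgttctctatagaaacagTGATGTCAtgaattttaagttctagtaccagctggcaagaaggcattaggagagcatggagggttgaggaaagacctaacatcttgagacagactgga
Fscb, chr6:88266926-88267045, minus strand: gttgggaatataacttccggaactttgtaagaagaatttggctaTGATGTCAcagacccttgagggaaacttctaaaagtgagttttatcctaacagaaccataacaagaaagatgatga
Akap3, chr4:161377930-161378049, plus strand: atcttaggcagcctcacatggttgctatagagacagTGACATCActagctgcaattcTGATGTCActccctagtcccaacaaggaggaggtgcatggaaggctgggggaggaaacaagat
Ropn1, chr11:79632345-79632464, minus strand: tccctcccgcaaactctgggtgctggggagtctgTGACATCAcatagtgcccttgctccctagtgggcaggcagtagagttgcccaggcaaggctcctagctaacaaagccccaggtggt
Akap14, chrX:121276377-121276496, minus strand: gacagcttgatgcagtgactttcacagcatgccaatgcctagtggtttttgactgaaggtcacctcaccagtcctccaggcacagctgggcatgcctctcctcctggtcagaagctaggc

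The word began 98 bases before the start of Akap4, 76 before Fscb and 86 before Ropn1. Akap3 held it at 84 and again at 63 bases before its start. Akap14, Ropn1l and Cabyr did not hold these letters in the 250 bases searched. Spa17 had no promoter entry, so whether it holds the word is not known here. The word was picked after the sequences had been looked at, as 1 of 9 searched on both strands: the full response element TGACGTCA, its variants TGATGTCA and TAACGTCA, the shorter word TGACG (which lies within the full element), the TATA box word TATAAA, the CCAAT box, the word TGACCTTT, the word GTTGCC, and the 14-base X-box palindrome (which contains that word). Of all 33469 RefSeq promoter windows, 3.8% held the word within 250 bases, and 2.92% held it within 100 bases. The unchanged element TGACGTCA was in 1.59% of windows and in none of the 7 sheath genes. Among genes of the array with a promoter entry, the sheath genes included, 231 of 11950 (1.93%) held the word. A match is a description of the letters and not of binding.

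**Figure D1:**
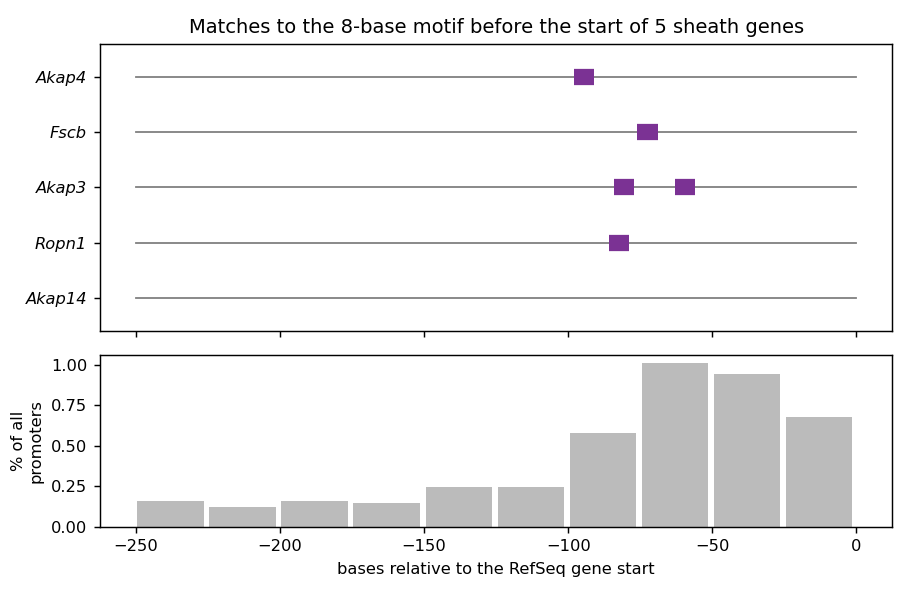
The upper panel marks each match to TGATGTCA or TGACATCA as a thick bar on the 250 bases before the RefSeq start of 5 sheath genes, and the lower panel gives the percent of all promoter windows that hold the word in each 25-base bin. The 5 matches in Akap4, Fscb, Akap3 and Ropn1 lie between 98 and 56 bases before the start, and Akap14 has none.

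Akap4 encodes the most abundant anchoring protein of the sheath and is encoded on the X chromosome. Its log2 level ran from 8.63 through a median of 10.01 to 11.06 in corn oil rats and from 9.67 through 10.47 to 12.30 in DBCP rats. After recovery it ran from 8.35 through 9.14 to 9.94 in corn oil rats and from 8.31 through 9.24 to 10.38 in DBCP rats. The groups overlapped at each time, while 16 of the 19 DBCP recovery arrays lay below every DBCP array. Akap4 was above its own array's median on all 78 arrays.

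Akap3 encodes a second anchoring protein, which binds Akap4 in the assembled sheath and is made earlier. Its levels ran from 6.24 through a median of 6.85 to 7.20 in corn oil rats and from 6.40 through 6.97 to 8.19 in DBCP rats. After recovery they ran from 6.14 through 6.50 to 6.75 in corn oil rats and from 6.21 through 6.57 to 7.00 in DBCP rats. The spread was widest in the DBCP group, with an SD of 0.46 (n = 20) against 0.15 in the corn oil recovery group (n = 19). Akap3 was above its array's median on 34 of 78 arrays, so it sat close to the middle of the signals.

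Fscb encodes a sheath protein that binds Cabyr and is phosphorylated by PKA. Its levels ran from 7.07 through a median of 7.88 to 8.66 in corn oil rats and from 7.43 through 8.19 to 10.03 in DBCP rats. After recovery they ran from 6.84 through 7.30 to 7.76 in corn oil rats and from 6.79 through 7.13 to 8.30 in DBCP rats. Both recovery medians lay below those at the end of exposure, and each group overlapped its neighbours.

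Spa17 encodes a small protein with a domain like that of the regulatory subunit of PKA, through which it binds anchoring proteins. Its levels ran from 8.26 through a median of 9.38 to 10.58 in corn oil rats and from 9.04 through 9.81 to 11.66 in DBCP rats. After recovery they ran from 7.95 through 8.75 to 9.25 in corn oil rats and from 8.13 through 8.71 to 9.58 in DBCP rats. Of the corn oil arrays, 12 of 20 lay above every corn oil recovery array, and of the DBCP arrays 14 of 20 lay above every DBCP recovery array.

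Ropn1 encodes ropporin, which carries the same kind of docking domain and binds Akap3. Its medians lay close together and all groups overlapped: they were 6.76 in corn oil rats, 6.86 in DBCP rats, 6.77 after recovery in corn oil rats and 6.61 after recovery in DBCP rats. Single arrays ranged from 5.91 in the corn oil group to 7.92 in the DBCP group.

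Akap14 encodes a small anchoring protein known from cilia and the sperm tail. Its medians were 5.30 in corn oil rats, 5.28 in DBCP rats, 5.21 in corn oil recovery and 5.26 in DBCP recovery, and all 78 arrays lay between 4.99 and 5.68. It was below its array's median on 78 of 78 arrays, and whether it was above background cannot be told from these values.

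**Figure D2:**
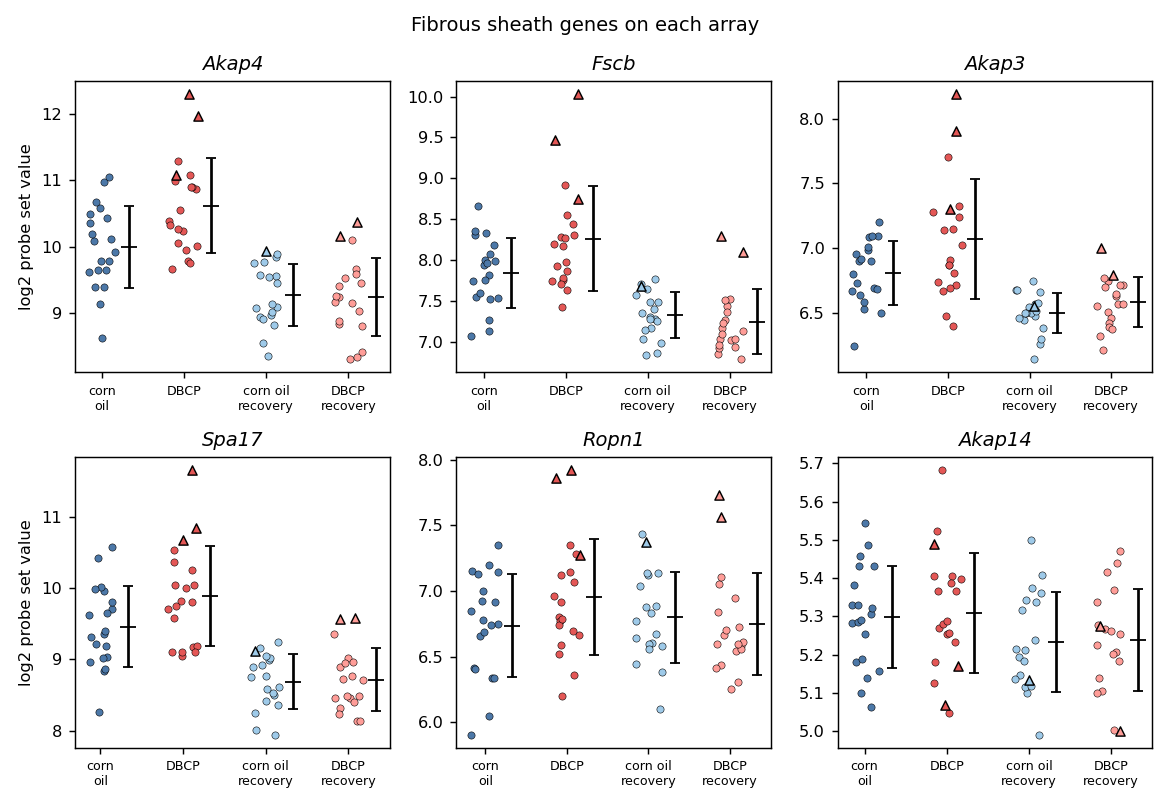
Each panel plots the log2 probe set value of 1 sheath gene on every array by group, with the mean and SD beside the points and triangles for the 6 arrays of low limma weight. Akap4, Fscb, Akap3 and Spa17 are lower in both recovery groups, with medians for Akap4 of 9.14 and 9.24 against 10.01 and 10.47, while the medians of Ropn1 lie between 6.61 and 6.86.

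At the end of exposure, all 6 sheath genes had a higher mean in DBCP rats than in corn oil rats, and none passed the test. Akap4 was higher by 0.63 ± 0.19 (SE; 1.54-fold; n = 20 and 20), with 16 of 20 DBCP arrays above the corn oil mean (limma adjusted p = 0.161). For Fscb the difference was 0.42 ± 0.14 (limma adjusted p = 0.201), with 14 of 20 arrays above. For Spa17 it was 0.43 ± 0.17 (limma adjusted p = 0.279), also with 14 of 20 arrays above. Akap3 differed by 0.26 ± 0.09, Ropn1 by 0.22 ± 0.12 and Akap14 by 0.01 ± 0.04, with limma adjusted p of 0.218, 0.482 and 0.923. Of the 29214 probe sets, 0% passed in limma at an adjusted p of 0.05.

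Before adjustment, Akap4 (p = 0.00123 in limma), Fscb, Akap3 and Spa17 had p under 0.05, all 4 higher in DBCP rats. Across the array, 11.6% of probe sets did so in either direction, and 6.91% did so with a higher mean in DBCP rats. The 4 genes varied together within groups (Pearson r from 0.77 to 0.94). Their results in this and the later comparisons are therefore not independent of each other. The median difference of the 6 sheath genes was 0.34, beside -0.01 for all named genes. The 95% intervals of the difference ran from 0.25 to 1.00 for Akap4 and from -0.08 to 0.10 for Akap14.

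After recovery, the same comparison gave differences on both sides of 0. Akap4 differed by -0.02 ± 0.19 (limma adjusted p = 0.997; n = 19 and 19), with a 95% interval from -0.41 to 0.36. Spa17 differed by 0.03 ± 0.17, Fscb by -0.08 ± 0.14 and Akap3 by 0.09 ± 0.09, with limma adjusted p of 0.996, 0.983 and 0.983. Ropn1 differed by -0.05 ± 0.12 and Akap14 by 0.01 ± 0.05. None of the 6 passed, nor did any probe set (0%), while 3.71% of probe sets had p under 0.05 in limma before adjustment.

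The change of the DBCP difference between the 2 times was tested as an interaction. It was -0.65 ± 0.27 for Akap4 and -0.50 ± 0.20 for Fscb, each with a limma adjusted p of 0.454, and with unadjusted p of 0.0173 and 0.0149. Spa17 (-0.40 ± 0.24), Ropn1 (-0.27 ± 0.17), Akap3 (-0.18 ± 0.13) and Akap14 (-0.01 ± 0.06) had limma adjusted p from 0.478 to 0.973. No probe set passed (0%), while 10.9% had p under 0.05 in limma before adjustment.

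Against the end of exposure, 4 of the 6 sheath genes fell after recovery in corn oil rats. Spa17 fell by 0.77 ± 0.17 (1.71-fold lower; limma adjusted p = 0.00052). Akap4 fell by 0.72 ± 0.19 (1.65-fold lower; limma adjusted p = 0.00371). Fscb fell by 0.51 ± 0.14 (1.42-fold lower) and Akap3 fell by 0.31 ± 0.09 (1.24-fold lower), with limma adjusted p of 0.00667 and 0.00966. For each of these 4 genes, 19 of 19 recovery arrays lay below the mean of the corn oil arrays. Ropn1 differed by 0.06 ± 0.12 and Akap14 by -0.07 ± 0.05, with limma adjusted p of 0.735 and 0.292. In this comparison 24.3% of all probe sets passed, and 12.8% passed and were lower.

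The same 4 genes passed in DBCP rats. Akap4 fell by 1.37 ± 0.19 after recovery (2.59-fold lower; limma adjusted p = 1.64e-07), and Spa17 fell by 1.17 ± 0.17 (2.25-fold lower; limma adjusted p = 3.6e-07). Fscb fell by 1.01 ± 0.14 (2.02-fold lower; limma adjusted p = 2.65e-07), with 18 of 19 recovery arrays below the DBCP mean. Akap3 fell by 0.49 ± 0.09 (1.40-fold lower; limma adjusted p = 6.82e-05). For Akap4, Spa17 and Akap3, 19 of 19 recovery arrays lay below that mean. Ropn1 differed by -0.20 ± 0.12 and Akap14 by -0.07 ± 0.05, with limma adjusted p of 0.29 and 0.317. Of all probe sets 13.5% passed, and 6.19% passed and were lower.

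**Figure D3:**
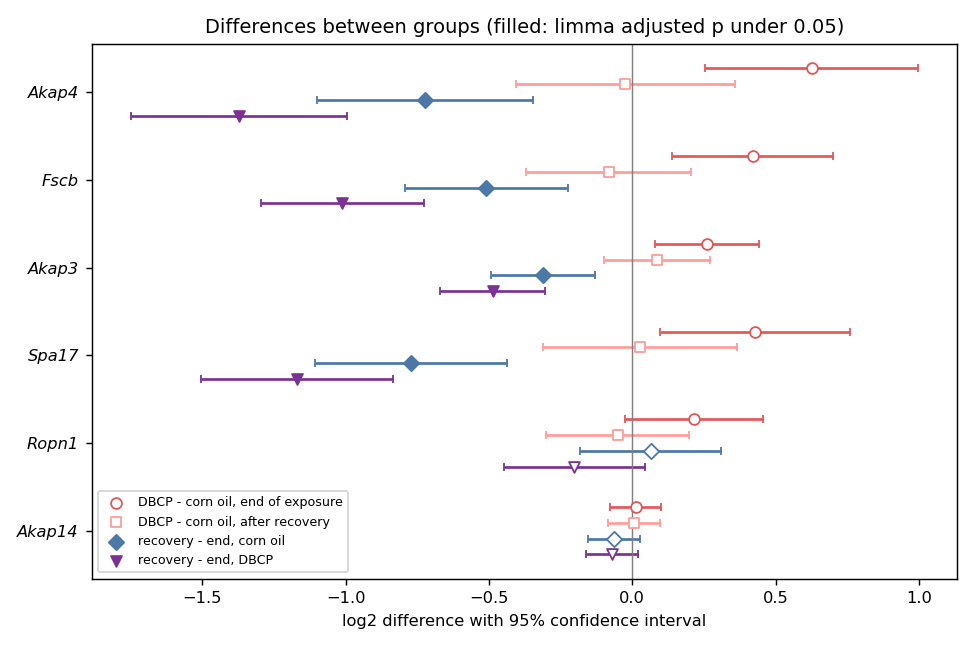
Points give the log2 difference of each sheath gene in 4 comparisons with its 95% confidence interval, filled where the limma adjusted p was under 0.05. The 8 filled points are the falls of Akap4, Fscb, Akap3 and Spa17 after recovery, from -0.31 to -1.37.

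The comparisons of the 2 times share their arrays with the comparisons of DBCP and corn oil, so their values are not independent. The ages of the rats are not given in the labels, and age, recovery and any processing that differed between the 2 collections cannot be told apart. Across the 4 groups, the mean levels of Akap4, Fscb, Akap3 and Spa17 had 1 order at the top: DBCP, then corn oil, then both recovery groups. The DBCP and corn oil groups did not differ past the threshold, nor did the 2 recovery groups.

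Marker levels moved beside these differences. The mean log2 level of 7 late spermatid nucleus genes (protamines, transition proteins and linker histones) was 9.70 in corn oil rats, 10.01 in DBCP rats and 9.40 in each recovery group, and 4 of the 7 genes fell in corn oil rats and 6 in DBCP rats. Leukocyte markers went the other way: their mean was 7.70, 7.59, 7.98 and 7.87 in corn oil, DBCP, corn oil recovery and DBCP recovery rats. Single arrays ranged from 7.43 to 8.05, from 7.29 to 7.86, from 7.68 to 8.33 and from 7.64 to 8.18 in the same order. Of 28 leukocyte markers, 15 rose and 2 fell in corn oil rats, and 17 rose and 0 fell in DBCP rats. Over all probe sets, 24.3% passed in corn oil rats and 13.5% in DBCP rats. Of 13 epididymal basal and clear cell markers, 7 rose and 2 fell in corn oil rats, and 1 rose and 1 fell in DBCP rats. The part of these shifts in the sheath genes was not tested.

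The labels number the replicates from 1 to 20 without saying what the numbers mark. With numbers 1 to 10 alone, Akap4 fell by 1.04 ± 0.23 in corn oil rats and Spa17 fell by 1.03 ± 0.21 (limma adjusted p = 0.00176 and 0.000899). Fscb and Akap3 passed as well. With numbers 11 to 20 alone, 0 of the 6 genes passed in corn oil rats. The differences were -0.41 ± 0.28 for Akap4, -0.52 ± 0.25 for Spa17, -0.43 ± 0.22 for Fscb and -0.25 ± 0.13 for Akap3. Their limma adjusted p ran from 0.236 to 0.422. The corn oil mean of Akap4 was 10.33 in numbers 1 to 10 and 9.67 in numbers 11 to 20 (SD 0.47 and 0.59, n = 10 each). The corn oil recovery means were 9.28 and 9.26. In DBCP rats, Akap4, Fscb, Akap3 and Spa17 passed in both sets of numbers.

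The DBCP difference at the end of exposure also varied with the arrays used. For Akap4 it was 0.38 ± 0.23 in numbers 1 to 10 and 0.87 ± 0.28 in numbers 11 to 20. For Spa17 it was 0.11 ± 0.21 and 0.74 ± 0.24. Whether the 2 sets of numbers differ was not tested. Limma gave 6 arrays a weight under 0.5: 3 DBCP arrays, DBCP recovery replicates 7 and 15, and corn oil recovery replicate 11. The 3 DBCP arrays, replicates 2, 13 and 20, had Akap4 levels of 11.98, 12.30 and 11.08, beside a DBCP median of 10.47. Without the 6 arrays the difference was 0.42 for Akap4, 0.22 for Fscb, 0.13 for Akap3, 0.22 for Spa17 and 0.09 for Ropn1, with a limma adjusted p of 1 for each. For each of these genes the 3 DBCP arrays lay above the DBCP mean, and no corn oil array of the same time was removed. A smaller difference therefore followed from which arrays were left out. The 4 falls after recovery passed in both treatments without the 6 low weight arrays.

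**Figure D4:**
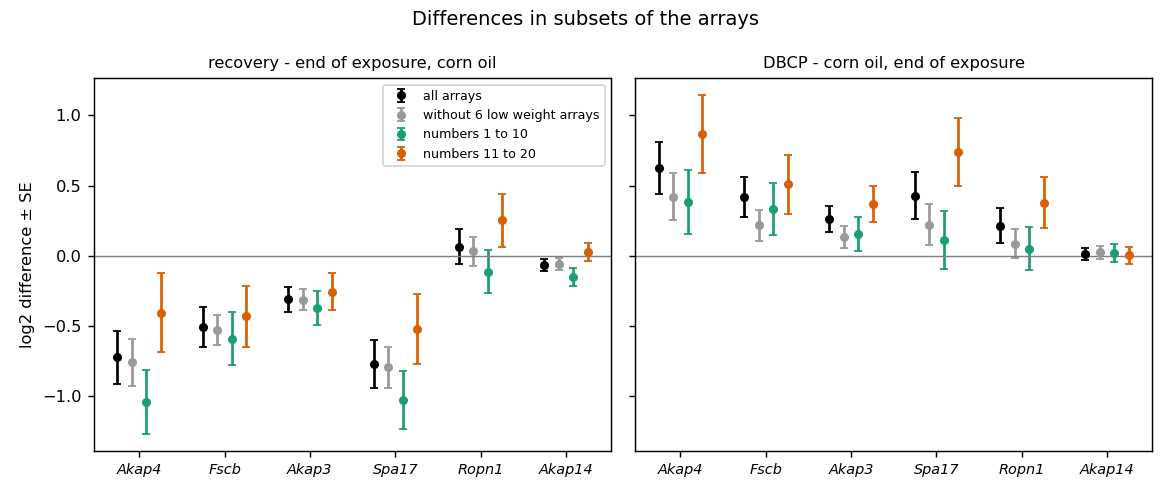
Points are log2 differences ± SE for 6 sheath genes in all arrays, without the 6 low weight arrays, and in replicate numbers 1 to 10 or 11 to 20 alone. In corn oil rats the fall of Akap4 is -1.04 in numbers 1 to 10 and -0.41 in numbers 11 to 20, and the DBCP difference of Akap4 is 0.38 and 0.87.

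Within groups, 5 of the 6 genes went up and down together from array to array. Correlations were taken over deviations from the group means on 78 arrays for 15 pairs of genes, with p from 100000 two-sided permutations within groups. Akap4 and Spa17 were the closest pair, with Pearson r = 0.94 and Spearman rho = 0.93. Akap4 and Fscb had r = 0.89 and rho = 0.89, and Fscb and Spa17 had r = 0.90 and rho = 0.88. Akap3 correlated with Fscb, Spa17 and Akap4 at r = 0.84, 0.81 and 0.77 and rho = 0.77, 0.76 and 0.75.

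Ropn1, which did not pass in any comparison of groups, followed the others less closely. Its r was 0.74 with Fscb, 0.63 with Akap4, 0.62 with Akap3 and 0.61 with Spa17, and its rho was 0.65, 0.58, 0.58 and 0.53. For these 10 pairs the permutation p for r was 1e-05, the smallest the permutations can give, and 1.5e-05 after Benjamini-Hochberg adjustment over the 15 pairs. The 10 permutation p for rho were 1.7e-05 or 4.5e-05 after adjustment. Without the 2 arrays farthest from the median of the first gene, r was 0.93 for Akap4 with Spa17 and 0.53 for Akap3 with Ropn1. Without the 6 low weight arrays it was 0.92 and 0.46.

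The 5 pairs with Akap14 had r from -0.23 to 0.01 and rho from -0.18 to 0.03, with adjusted permutation p from 0.074 to 0.9 for r and from 0.15 to 0.82 for rho. Some arrays stood at the end of their group for several genes. DBCP replicate 13 was the highest DBCP array for 4 of the 6 genes and DBCP replicate 12 the lowest for 4. Corn oil replicate 12 and corn oil recovery replicate 18 were the lowest of their groups for 4 genes, and DBCP recovery replicate 7 was the highest of its group for 4. At the other ends (highest in corn oil and in corn oil recovery, lowest in DBCP recovery), no array was shared by more than 2 genes.

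**Figure D5:**
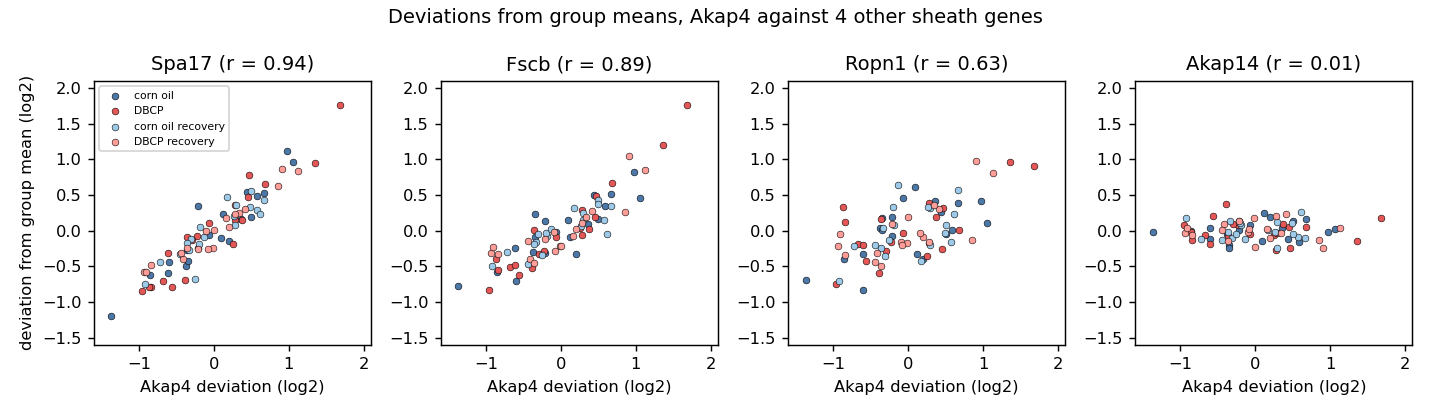
Each point is 1 of 78 arrays, with the deviation of Akap4 from its group mean (log2) on the x axis and that of Spa17, Fscb, Ropn1 or Akap14 on the y axis. The points of Spa17 (r = 0.94) and Fscb (r = 0.89) follow a line, those of Ropn1 (r = 0.63) scatter, and those of Akap14 (r = 0.01) lie flat.

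Deviations of the sheath genes were also set against the mean of 8 marker lists, 48 relations in all. The late spermatid nucleus list had r = 0.92 with Fscb (rho = 0.91), 0.91 with Spa17 (rho = 0.89), 0.90 with Akap4 (rho = 0.89), 0.81 with Akap3 (rho = 0.77) and 0.75 with Ropn1 (rho = 0.68). Each of these had an adjusted permutation p of 4.4e-05 for r and 4.8e-05 for rho, and without the 2 farthest arrays r was 0.91, 0.90, 0.87, 0.76 and 0.71 in the same order. In the meiotic germ cell list 3 of 14 genes fell in corn oil rats and 2 in DBCP rats, beside 12.8% and 6.19% of all probe sets. Its group means lay between 6.14 and 6.17, below the array medians of 6.55 to 6.75, and whether it was above background cannot be told. This list had r from 0.52 to 0.64 with the same 5 genes (rho from 0.45 to 0.63, adjusted permutation p = 4.4e-05 for r). The leukocyte list had r from -0.11 to -0.01 with these genes other than Ropn1 (adjusted permutation p from 0.52 to 0.92, rho from -0.15 to -0.03). With Ropn1 the leukocyte list had r = 0.29 (rho = 0.31, adjusted permutation p = 0.031 and 0.022, r = 0.30 without the 2 farthest arrays). Relations with the lists of other somatic cells were mostly negative where they passed. Fscb, Spa17 and Ropn1 had r = -0.36, -0.34 and -0.34 with the stroma list (rho = -0.30, -0.33 and -0.28), with adjusted permutation p of 0.0068, 0.0099 and 0.0099 for r and 0.035, 0.022 and 0.045 for rho. Without the 2 farthest arrays these r were -0.35, -0.34 and -0.25. With the Sertoli and Leydig cell list, Fscb had r = -0.32 (rho = -0.29, adjusted permutation p = 0.021 and 0.034, r = -0.33 without the 2 farthest arrays). Ropn1 had r = -0.54 with it (rho = -0.54, adjusted permutation p = 4.4e-05 and 4.8e-05, r = -0.55 without the 2 farthest arrays). The group means of the Sertoli and Leydig cell list lay between 6.50 and 6.61, near the array medians. Whether its genes were above background cannot be told either. Akap14 had r = 0.30 with that list (rho = 0.27, adjusted permutation p = 0.027 and 0.062), and Ropn1 had r = 0.28 with the epididymal basal and clear cell list (rho = 0.20, adjusted permutation p = 0.043 and 0.19).

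The genes most like each sheath gene were taken from the 14500 other named genes by the same r over 78 arrays, as a description. For Akap4 they were Ubqlnl, a ubiquilin-like gene (r = 0.98), the signalling factor Stat4 (0.97) and Crisp2, a cysteine-rich protein of sperm (0.97). For Spa17 they were the ubiquitin ligase Marchf10 (0.96), Crisp2 (0.95) and the transcription factor Spz1 (0.95). For Fscb they were the zinc finger gene Zfp474 (0.94), Pmfbp1, a protein of the joint between sperm head and tail (0.94), and the actin regulator Cap2 (0.93).

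For Akap3 the most alike were the kinesin Kif2b (0.86), Lrrc18 (0.85) and Garin2 (0.85). For Ropn1 they were Tsacc, a cochaperone of a testis kinase (0.90), Gdpd1 (0.89) and Cimip2a (0.89). Akap14 had no close match: its highest values were 0.49 with Ceacam9, 0.48 with Slc27a5 and 0.47 with Trim31. An r over 0.5 was reached with 5.97% of genes for Akap4, 11.8% for Ropn1 and 0% for Akap14. The genes most like Akap4 fell after recovery too: Ubqlnl fell by 0.74 ± 0.16 in corn oil rats and by 1.28 ± 0.16 in DBCP rats (limma adjusted p = 0.000456 and 2.81e-08).

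PKA and the genes that set its activity did not share 1 direction. Of 10 measured genes, 2 rose and 1 fell after recovery in corn oil rats, and 1 rose and 3 fell in DBCP rats. Over all probe sets, 24.3% passed in corn oil rats (12.8% lower) and 13.5% in DBCP rats (6.19% lower). Of 11950 array genes with promoter entries, 1422 fell and 1928 rose in corn oil rats, and 904 fell and 1082 rose in DBCP rats. In corn oil rats the PKA list was near these shares. Adcy10, the soluble adenylyl cyclase that makes cyclic AMP in sperm, fell by 0.23 ± 0.08 and by 0.35 ± 0.08 (limma adjusted p = 0.0201 and 0.000536). The catalytic subunits Prkacb and Prkaca rose by 0.27 ± 0.05 and 0.16 ± 0.05 in corn oil rats (limma adjusted p = 8.93e-05 and 0.0122). In DBCP rats the phosphodiesterase Pde4a fell by 0.15 ± 0.05 and the regulatory subunit Prkar1b fell by 0.17 ± 0.06 (limma adjusted p = 0.0242 and 0.0396). No gene of this list passed for DBCP against corn oil; the largest difference at the end of exposure was that of the regulatory subunit Prkar2a, 0.47 ± 0.14 (limma adjusted p = 0.168).

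Of 11 other anchoring proteins, 2 rose and 2 fell in corn oil rats and 4 rose and 2 fell in DBCP rats. The shares over all probe sets were 24.3% and 13.5%. With 1 probe set per gene, 4382 of 14506 genes passed in corn oil rats. Akap1, which anchors PKA at mitochondria, fell by 0.31 ± 0.07 in corn oil rats and by 0.55 ± 0.07 in DBCP rats (limma adjusted p = 0.000746 and 3.66e-08). Akap12 fell by 0.56 ± 0.10 in DBCP rats, and Akap13 and Akap10 rose by 0.17 ± 0.04 and 0.25 ± 0.08 in corn oil rats. Akap9, an anchor at the centrosome and Golgi, rose by 0.14 ± 0.04 in DBCP rats. The median difference of this list was 0.03 and 0.04, beside -0.41 and -0.75 for the 6 sheath genes and -0.02 and 0.01 for all named genes.

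Of 9 measured partners of the sheath, 2 fell in corn oil rats, the testis kinase Tssk4 (-0.16 ± 0.04) and Dydc2 (-0.19 ± 0.07), with limma adjusted p of 0.00586 and 0.0272. In DBCP rats 1 fell, the glutathione transferase Gstm5, by 0.70 ± 0.12 (limma adjusted p = 7.4e-06). None rose in either treatment. Counted in either direction, these numbers were near the shares over all probe sets, 24.3% in corn oil rats and 13.5% in DBCP rats.

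Of 15 glycolytic genes, several of whose enzymes are bound to the sheath, 4 fell and 1 rose in corn oil rats, and 9 fell and 0 rose in DBCP rats. Over all probe sets, 24.3% passed in corn oil rats (12.8% lower) and 13.5% in DBCP rats (6.19% lower). Gapdhs, the sperm form of glyceraldehyde-3-phosphate dehydrogenase, fell by 0.56 ± 0.15 in corn oil rats and by 1.11 ± 0.15 in DBCP rats (limma adjusted p = 0.00529 and 1.3e-07). The muscle-type phosphofructokinase Pfkm fell by 0.23 ± 0.04 and by 0.31 ± 0.04, and the aldolase Aldoart2 fell by 0.67 ± 0.11 in DBCP rats. The gene that rose was Tpi1, triosephosphate isomerase, by 0.37 ± 0.11 in corn oil rats (limma adjusted p = 0.0114). At the end of exposure all 15 were higher in DBCP rats, with a median difference of 0.28, and 0 passed in limma.

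Of 10 genes of the outer dense fibres and the mitochondrial sheath, 5 fell in corn oil rats, Tssk4 again among them, and 7 in DBCP rats, and 0 rose. The shares of all probe sets that passed and were lower were 12.8% and 6.19%. Spata19, a mitochondrial protein of the midpiece, fell by 1.08 ± 0.25 in corn oil rats and by 1.63 ± 0.25 in DBCP rats (limma adjusted p = 0.00117 and 1.68e-06). Spag4 and Odf4 fell by 0.43 ± 0.08 and 0.72 ± 0.14 in DBCP rats. The median difference of this list was -0.15 and -0.31 in the 2 treatments.

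The 8-base word of the sheath promoters was counted in the genes that passed, again as a description. It was in 24 of 380 genes (6.32%) that fell in both treatments, with the sheath genes left out. In DBCP rats it was in 44 of 904 genes (4.87%) that fell, in 16 of 1082 (1.48%) that rose and in 171 of 9964 (1.72%) that did not pass. In corn oil rats it was in 38 of 1422 (2.67%) that fell, in 27 of 1928 (1.40%) that rose and in 166 of 8600 (1.93%) that did not pass. The counts for each single treatment include the sheath genes, from whose promoters the word was picked. Akap3, Akap4 and Fscb are among those that fell, and Ropn1 is among those that did not pass. Spa17, which also fell, had no promoter entry and is not in these counts. Within the lists, only genes with a promoter entry were counted. The word was in 2 of 13 glycolytic genes (15.4%), 1 of 6 late spermatid nucleus genes (16.7%) and 1 of 9 outer dense fibre genes (11.1%). It was in 2 of 11 other anchoring proteins (18.2%). Among the other marker lists, it was in 3 of 21 leukocyte markers (14.3%) and in 1 of 11 Sertoli and Leydig cell genes (9.09%). It was in 2 of 9 genes (22.2%) of both the epididymal basal and clear cell list and the stroma list. None of 11 meiotic germ cell genes, 9 epididymal principal cell genes or 6 erythrocyte genes held it. The word was in 0 of 9 genes of the PKA list and in 0 of 8 partners of the sheath. All these lists are small, and the share over all array genes with a promoter entry was 1.93%. Of 12 genes most like the 5 sheath genes other than Akap14, 1 held it. Ropn1 held the word and did not pass in any comparison.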

How the data were processed

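The authors deposited log2 signals, 1 per probe set and array (29214 probe sets, 78 arrays, 0 missing). The submitters' processing notes name limma, without a version; how the signals were background-corrected, normalized and summarised is not given in the sources used, and a common scale was assumed. Genes were named through the platform annotation: 15310 probe sets had 1 symbol, 323 had several and 13581 had none. Per gene, the probe set of highest mean was used. All probe sets entered 1 model with a mean per group (limma 3.58.1, R 4.3.3, lmFit and eBayes) with Benjamini-Hochberg adjustment over all probe sets and a threshold of 0.05; a gene "passed", "rose" or "fell" by that rule. The code was tested on simulated data. Alternatives covered scaling, array quality, variance prior, replicate numbers, probe set choice and leaving out each array.

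Named genes are the sheath genes; per other list and comparison at most 3 passing genes of smallest p, or the 2 of highest mean where none passed; and the 3 genes most like each sheath gene. Prkar2a is among the brightest of its list. The sheath genes and lists were chosen with earlier results of these data known. The labels do not say whether replicate numbers pair the samples, and the main model did not use them as pairs.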

Additional observations from a re-analysis of the deposited data

How the results depend on the processing

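The falls of Akap4, Fscb, Akap3 and Spa17 after recovery held in DBCP rats under all alternatives run, and in corn oil rats under all but numbers 11 to 20 alone (0 of 6 genes passed, against 4). No sheath gene passed for DBCP against corn oil under any alternative. Leaving out each array in turn kept 4 passing genes in each time comparison (4 to 4) and 0 for DBCP at the end of exposure (0 to 0). Probe sets passing for the latter numbered 0 to 14 in these fits, with 14 without DBCP replicate 12, 10 without corn oil replicate 4, 2 without DBCP replicate 4, and 1 without each of DBCP replicates 7 and 16 and corn oil replicates 5 and 9. They numbered 1 when each gene had 1 probe set. In corn oil rats the count for time was 7108 (5802 to 7849 without single arrays). It was 4768 in numbers 1 to 10 alone, 385 in numbers 11 to 20 alone and 4382 with 1 probe set per gene. In DBCP rats it was 3933, and 505 in numbers 11 to 20 and 2375 with brighter probe sets only (3303 to 4558 without single arrays). Fewer arrays or probe sets were tested in each subset. Whether the falls in corn oil rats differ between the 2 sets of numbers was not tested, and neither was any cause.

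The differences whose sign turned had not passed. For DBCP against corn oil after recovery, Akap4 was 0.0051 after quantile normalization, 0.030 with numbers 11 to 20 and 0.027 with the replicate block. Akap14 was -0.026 after quantile normalization, -0.0077 after median centring and -0.080 with numbers 11 to 20. Spa17 was -0.025 with array weights, -0.048 without low weight arrays and -0.027 with numbers 1 to 10, where Ropn1 was 0.11. The interaction was 0.0032 for Akap14 with array weights and, with numbers 1 to 10, 0.062 for Akap14 and 0.060 for Ropn1, which was -0.27 over all arrays. For time in corn oil rats, Ropn1 was -0.11 with numbers 1 to 10 and Akap14 was 0.025 with numbers 11 to 20. Without single arrays, the DBCP difference after recovery ran from -0.087 to 0.028 for Akap4, from -0.0077 to 0.021 for Akap14 and from -0.020 to 0.060 for Spa17. That of Akap14 ran from -0.0077 to 0.026 at the end of exposure, and its interaction from -0.020 to 0.013. Akap14 passed for time in DBCP rats after quantile normalization (-0.13, limma adjusted p = 0.0411); the cause was not tested. Same-numbered arrays had correlations from -0.488 to 0.568 (114 pairs, median 0.00899), 7 of 78 arrays correlated best with their own number, and the block changed no call.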
